A study of Rattus norvegicus with 6 samples.

Results

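The genes examined in rat lung were 10 whose products modify, fold or crosslink collagen: the lysyl oxidases Lox, Loxl1, Loxl2, Loxl3 and Loxl4, the lysyl hydroxylases Plod1, Plod2 and Plod3, the prolyl hydroxylase subunit P4ha1, and the collagen chaperone Serpinh1. They were chosen by name for their roles in collagen maturation, with earlier results of these data known, and all 10 were found among the 21210 gene names that carry at least 1 annotated transcript. They hold 30 of the 70376 transcript rows of the table, 15 annotated and 15 assembled from the reads. The lungs came from Sprague-Dawley (SD) rats that were 7 weeks old at the start. The pulmonary fibrosis (PF) model rats received bleomycin, a drug that injures the lung, once into the trachea at 7 mg/kg, and the control rats received the same volume of saline by the same route. Lung was taken on day 28, and 1 library depleted of ribosomal RNA was sequenced for each of 3 model and 3 control rats out of 20 rats in the study. The labels and methods name no other difference in treatment or genotype between the groups. The libraries are of whole lung, so a lower level can mean fewer cells of a type or less RNA per cell, and these cannot be told apart.

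Collagen chains are modified while they are still being made. Prolyl 4-hydroxylase, of which P4ha1 is the main catalytic subunit, hydroxylates prolines and so lets the triple helix stay folded at body temperature, and the lysyl hydroxylases hydroxylate lysines that later carry sugars and crosslinks. Serpinh1 (HSP47) is a chaperone of the endoplasmic reticulum that binds folded procollagen. After secretion, the lysyl oxidases, copper enzymes, convert lysines and hydroxylysines of collagen and elastin to aldehydes, from which the crosslinks that stiffen a fibrotic lung form. Levels are given as FPKM, fragments per kilobase of transcript scaled to the size of the library, summed over the transcript rows of a gene name. FPKM is scaled by length, so levels of different genes can be set side by side.

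The libraries held the transcripts of lung: the surfactant protein gene Sftpc lay between 2410 and 4146 FPKM, and 5 fibroblast markers summed to 68.9 to 80.1 FPKM in control and 69.9 to 82.6 in model samples. A level of 1 FPKM stood for a mean coverage of 6.39 to 7.33 reads per base, depending on the library. Markers of heart muscle summed to 6.07 to 10.5 FPKM in control and 5.94 to 25.6 in model samples, the highest sum being in model 3, where Myh6 was 5.11 FPKM. Smooth muscle and myofibroblast markers, a list that does not separate these cell types, summed to 98.5 to 130.3 FPKM in control and 94.3 to 167.9 in model samples. Of the tested markers of 8 cell types, the atrial gene Nppa alone had an unadjusted p of at most 0.05 (4.90% of all genes did). Its mean was 0.0357 FPKM in control and 0.157 in model samples. Nppa also passed the fold threshold given below (log2 ratio 2.14), but near the floor, with 0 FPKM in control 2 and control 3. Myh6 was above 0 in too few libraries to be tested. The macrophage gene Cd68 was 1.30 FPKM in control 3 and 1.21 in model 2, against 20.7 to 22.8 in the other libraries. The macrophage markers Mrc1, Adgre1 and Msr1 did not share this drop, each having its lowest level in another library. In control 3 and model 2, Mrc1 was 10.998 and 16.6 FPKM, Adgre1 3.24 and 2.695, and Msr1 8.31 and 8.44, in that order. Control 3 and model 2 also stood apart in the isoforms of P4ha1. Control 3 had the lowest level of all 6 libraries for 5 of the 10 genes.

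None of the 10 genes passed the thresholds for a differentially expressed gene, an unadjusted p of at most 0.05 with a log2 ratio of mean FPKM of at least 1 in either direction (0 of 10). Of all 19203 genes tested, 293 (1.53%) passed, 132 higher and 161 lower in the PF model. When the values were rescaled to TPM, the split was 182 higher and 131 lower, still with none of the 10. By p alone, 1 of the 10 was at or under 0.05, against 4.90% of all genes. Each of the 10 had a mean of at least 1 FPKM, and among all genes with such a mean 0.554% passed both thresholds and 4.78% had an unadjusted p of at most 0.05. After Benjamini-Hochberg adjustment none of the 10 was below 0.05, against 0.0104% of all genes (2 genes), and the lowest adjusted p of the 10 was 0.934. Of the 10 genes, 6 had a log2 fold change above 0, against 47.7% of all genes, and the median was 0.06 against -0.01 for all genes. The samples bound the differences on the log2(FPKM + 1) scale: the 95% intervals of all 10 genes lay inside 1 log2 unit in either direction, the lowest bound being -0.91 for Plod2 and the highest 0.59 for Serpinh1.

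**Figure D1:**
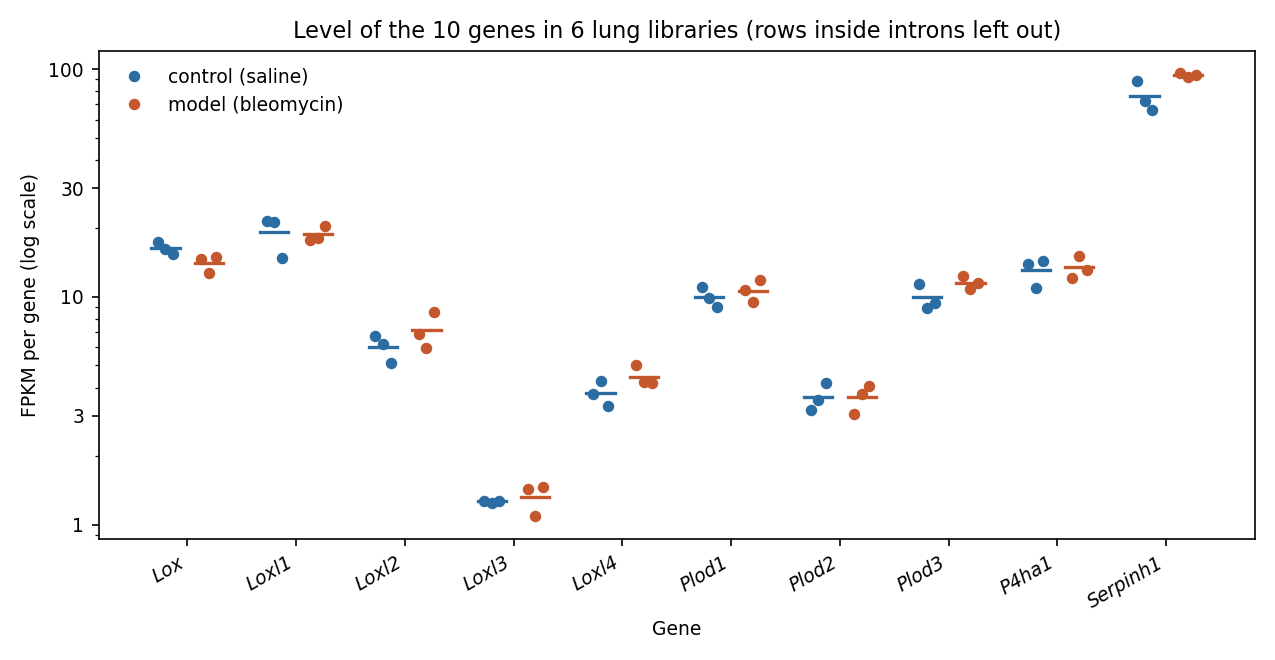
FPKM of the 10 genes (log axis) in 3 control and 3 model libraries, with rows inside introns left out; each point is a library and each bar is a group mean. Serpinh1 lies above the other 9 genes in every library, and its model points, 92.7 to 96.2, lie above its control points, 66.4 to 88.5.

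Serpinh1 was by far the most abundant of the 10. It lies on chromosome 1, 164301010 to 164308317 on the minus strand, in the coordinates of the table, whose genome build is not given in the sources used here. Its FPKM was 88.5, 72.6 and 66.4 in the control and 96.2, 92.7 and 93.7 in the model samples. Every model sample lay above every control sample, and the model samples lay close together whereas the control samples were spread. The group means were 75.9 ± 11.4 in control and 94.2 ± 1.78 in model samples (SD, n = 3), which is 24.2% higher in the model. The log2 fold change was 0.32 (SE 0.115, 95% interval 0.04 to 0.59, unadjusted p = 0.0297, adjusted p = 0.934). Of the 10 genes, 2 had groups that did not overlap, against 10.7% of all genes and 11.2% of genes with a mean of at least 1 FPKM. They were Serpinh1, higher in the model (4.86% of all genes), and Lox, lower in the model (5.83%). The two-sided exact permutation test gave p = 0.1 for both, the smallest that 3 against 3 allows, and 0.2 to 1 for the other 8 genes. Without control 3, the lowest sample, the difference was 0.23 (unadjusted p = 0.0873), and without control 3 and model 2 together it was 0.24 (unadjusted p = 0.129). Nearly all of the signal came from ENSRNOT00000022983, a transcript of 5 exons with 63.8 to 85.9 FPKM in control and 87.4 to 94.1 in model samples (log2 fold change 0.32, unadjusted p = 0.0661). The shorter row ENSRNOT00000086091 was 2.62, 2.99 and 2.63 FPKM in the control and 2.08, 5.26 and 2.86 in the model samples, with overlap.

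Serpinh1 is known as a heat shock gene, and Plod2 and P4ha1 are known targets of the hypoxia factor HIF-1, so the promoters were searched on both strands for a heat shock element of 3 units, TTC, GAA and TTC with any 2 bases (NN) between them, and for the core of the hypoxia response element, ACGTG. RefSeq promoters of 300 bases (build GRCr8, not the coordinates of the table) were matched for 8 of the 10 genes, all except Lox and Loxl2. The heat shock element was present in Serpinh1 and Plod2, and in 0.798% of all 33469 promoters. The ACGTG core was present in P4ha1 and Plod2, and in 19.3% of all promoters. Each match is given on the strand of the gene with the motif in capitals, and where the motif lies on the opposite strand the capitals are its reverse complement. The windows of the Plod2 heat shock element and its first ACGTG core do not overlap. No measurement of binding was part of these data, and a match describes the letters only.
Serpinh1, 35 bases upstream of the gene start, chr1:163062991-163063018, minus strand: tccaactTTCCAGAAGTTTCttaggaca
Plod2, 212 bases upstream, chr8:101964099-101964126, plus strand: tgtcgagGAAGCTTCTGGAAcgcgggga
Plod2, 178 bases upstream, chr8:101964129-101964156, plus strand: gcagaggggcgCACGTtccgcaagcaag
Plod2, 133 bases upstream, chr8:101964174-101964201, plus strand: gtgaggcggtgCACGTaggcgtaggcga
P4ha1, 11 bases past the gene start, chr20:27845046-27845073, plus strand: gtgactgagcgCACGTagcgagagctgt

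P4ha1 (chromosome 20, 28920616 to 28971966, plus strand) was 16.8, 12.7 and 17.2 FPKM in the control and 14.1, 17.7 and 14.3 in the model samples. The groups overlapped throughout, with a log2 fold change of -0.01 (SE 0.144, 95% interval -0.36 to 0.33, unadjusted p = 0.930). Its sign turned to 0.07 under TPM scaling. Of its 6 rows, 1 lies in an intron on the opposite strand (MSTRG.21891.1, 1.23 to 2.82 FPKM). Without it, P4ha1 was 13.1 ± 1.91 in control and 13.5 ± 1.57 in model samples (SD, n = 3; log2 fold change 0.04, unadjusted p = 0.767).

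The isoforms of P4ha1 were split differently in a pair of libraries, one of each group. Of its rows, 4 have 15 exons. MSTRG.21890.5, the longest of them at 4036 bases, held 77.0%, 72.7% and 19.1% of their summed FPKM in the control and 81.9%, 17.5% and 72.6% in the model samples. Control 3 and model 2 were thus far below the other libraries. In those 2 libraries MSTRG.21890.1, which has the same end but an earlier start, was 6.45 and 4.24 FPKM, against 0.730 to 1.38 in the other libraries. MSTRG.21890.3 was likewise highest there, at 2.44 and 4.26 FPKM, against 0.0402 to 1.33 elsewhere. The annotated transcript ENSRNOT00000070897 stayed between 0.314 and 1.33 FPKM in all 6 libraries, and the 4-exon row MSTRG.21890.4 between 1.98 and 3.89. The sum over the 15-exon rows was 11.4 and 11.7 FPKM in those 2 libraries and 8.72 to 11.1 in the others, with means of 10.1 ± 1.32 in control and 10.7 ± 1.28 in model samples. Assembled rows that share most of their exons also share reads, so the division of FPKM among them is less certain than their sum.

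**Figure D2:**
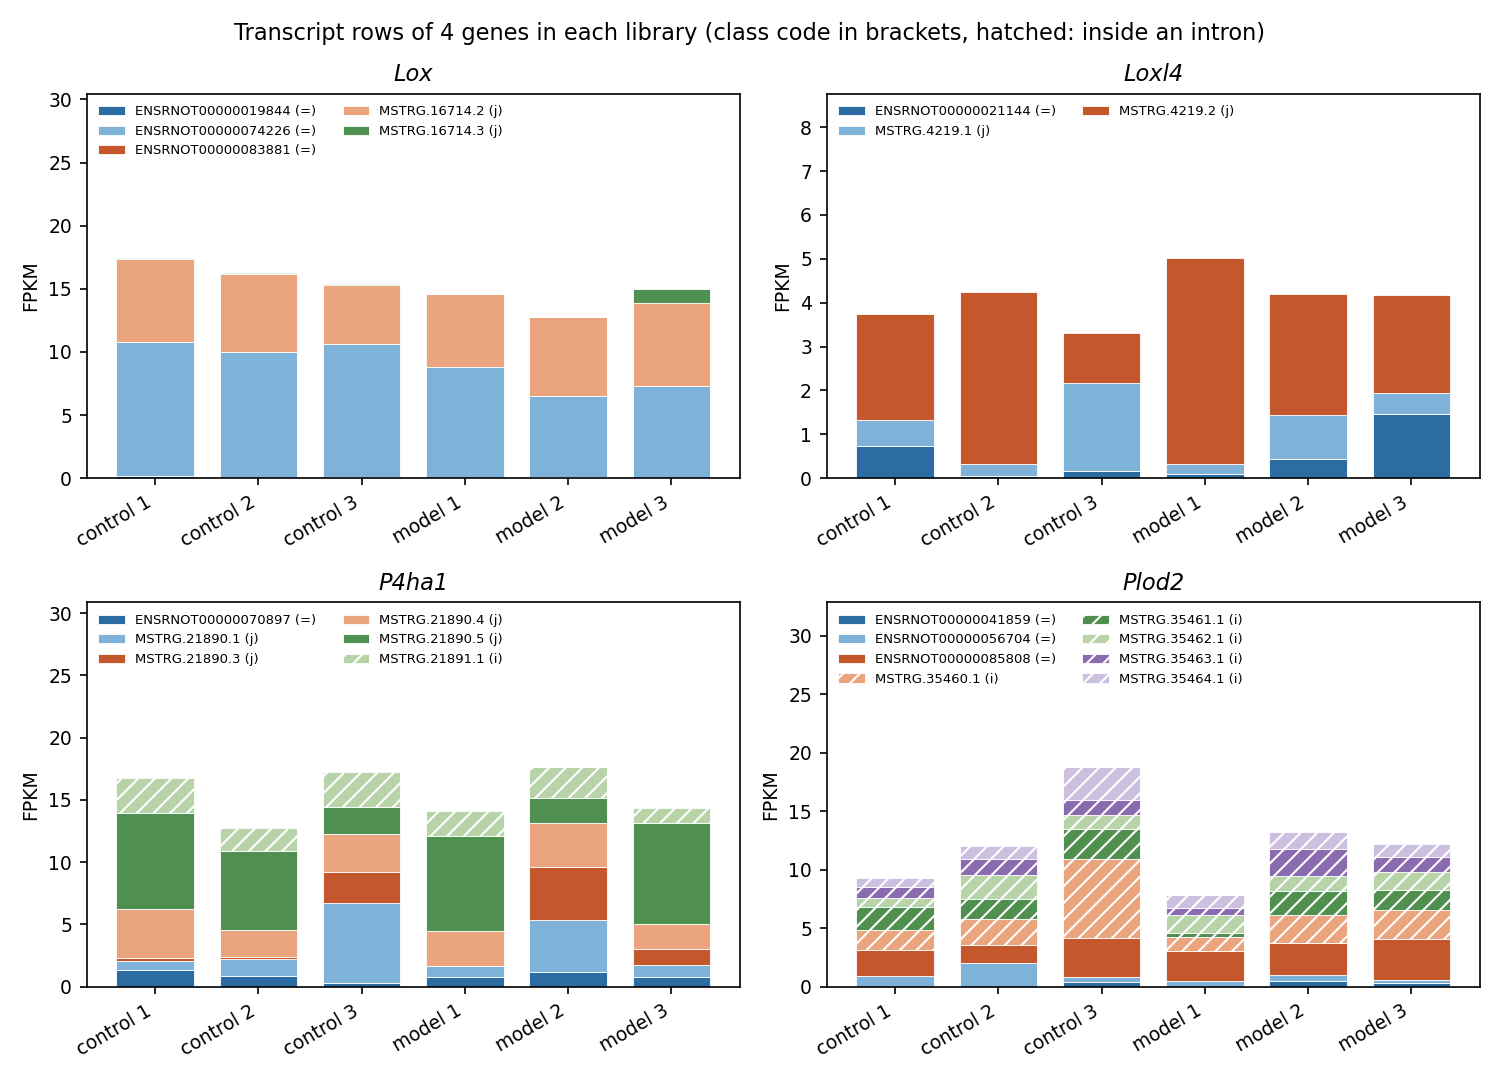
FPKM of each transcript row of Lox, Loxl4, P4ha1 and Plod2, stacked, in the 3 control and 3 model libraries; hatched segments are rows that lie inside an intron of the gene. In P4ha1 the MSTRG.21890.5 segment is small in control 3 and model 2, and in Plod2 the hatched rows make up 60.9% to 77.7% of each bar.

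Plod1 and Plod3 had similar levels. Plod1, which hydroxylates lysines of the collagen helix (chromosome 5, 164720587 to 164747083, minus strand), was 11.0, 9.89 and 8.99 FPKM in the control and 10.7, 9.45 and 11.8 in the model samples. These groups overlapped, with a log2 fold change of 0.09 (SE 0.117, 95% interval -0.19 to 0.37, unadjusted p = 0.484). Plod3, which also transfers sugars to hydroxylysine (chromosome 12, 22716423 to 22726982, minus strand), was 11.4, 8.98 and 9.43 FPKM in the control and 12.3, 10.8 and 11.5 in the model samples. Here control 1 alone lay within the range of the model samples. Its log2 fold change was 0.20 (SE 0.112, 95% interval -0.07 to 0.47, unadjusted p = 0.122), and leaving out 1 sample at a time it ranged from 0.14 (without control 2, unadjusted p = 0.317) to 0.29 (without control 1, unadjusted p = 0.0347). The minor Plod1 row MSTRG.29480.1, with 15 exons in place of the 19 of the annotated transcript, was 1.47, 0.681 and 1.03 FPKM in the control and 1.95, 1.63 and 1.76 in the model samples. All model values of that row lay above the control values (log2 fold change 0.45, SE 0.191, unadjusted p = 0.0583), while the annotated transcript ENSRNOT00000010433 was 8.91 ± 0.842 in control and 8.88 ± 1.12 in model samples.

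Plod2, the enzyme that hydroxylates the telopeptide lysines used for the more stable crosslinks (chromosome 8, 99977334 to 100059736, plus strand), had values that depended on which rows were summed. Over all 8 rows it was 9.26, 12.0 and 18.8 FPKM in the control and 7.84, 13.2 and 12.2 in the model samples, and control 3 stood above the other 5 libraries. The log2 fold change of that sum was -0.22 (SE 0.284, 95% interval -0.91 to 0.46, unadjusted p = 0.459), and 0.04 without control 3. Of these rows, 5 are single-exon fragments of 326 to 999 bases inside introns, and they held 60.9% to 77.7% of the Plod2 sum. The highest of them, MSTRG.35460.1, was 1.68, 2.23 and 6.71 FPKM in the control and 1.21, 2.37 and 2.54 in the model samples, so that control 3 stood out in this row too. The other 4, MSTRG.35461.1 to MSTRG.35464.1, lay between 0.305 and 2.79 FPKM. The annotated rows alone were 3.18, 3.53 and 4.18 FPKM in the control and 3.06, 3.75 and 4.05 in the model samples. That sum was nearly the same in both groups, 3.63 ± 0.511 in control and 3.62 ± 0.507 in model samples, with a log2 fold change of -0.0029 (95% interval -0.34 to 0.33, unadjusted p = 0.984).

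Plod2 is known to be made in a long and a short form that differ by 1 small exon, the long form being the one tied to telopeptide hydroxylation. The annotated rows of 3672 and 3609 bases have 20 and 19 exons, begin and end at the same positions, and differ by 63 bases. Of the 20-exon rows, ENSRNOT00000085808 was 1.54 to 3.35 FPKM in control and 2.57 to 3.51 in model samples (log2 fold change 0.25, unadjusted p = 0.329). ENSRNOT00000056704 was 0.391 to 1.99 in control and 0.261 to 0.510 in model samples (log2 fold change -0.50, unadjusted p = 0.142). Both rows overlapped between the groups. Together the 20-exon rows were 3.48 ± 0.288 FPKM in control and 3.36 ± 0.368 in model samples. They held 100%, 100% and 89.5% of the annotated Plod2 FPKM in the control and 100%, 86.4% and 93.0% in the model samples. The 19-exon row was listed at 0 in control 1, control 2 and model 1, and at 0.439, 0.509 and 0.283 FPKM in control 3, model 2 and model 3. The long form thus held most of the signal in every library, and its share overlapped between the groups. The summed exonic FPKM of the 3 lysyl hydroxylases was 23.5 ± 1.81 in control and 25.8 ± 1.69 in model samples.

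Lox, the founding member of the lysyl oxidases (chromosome 18, 47500330 to 47577819, minus strand), was 17.4, 16.2 and 15.4 FPKM in the control and 14.6, 12.8 and 14.96 in the model samples. All model samples lay below all control samples, by a narrow gap between control 3 and model 3. The means were 16.3 ± 1.03 and 14.1 ± 1.17 (SD, n = 3), with a log2 fold change of -0.20 (SE 0.093, 95% interval -0.42 to 0.03, unadjusted p = 0.0736, adjusted p = 0.934). The sign was negative under all 19 alternative settings, with p at or below 0.05 in 1 of them, the sum over annotated transcripts alone. The difference was smallest under TPM scaling, at -0.12 (unadjusted p = 0.316). The gap between the groups holds for FPKM as deposited. The factor that TPM scaling divides by was largest in control 2 (1.10) and smallest in model 3 (0.943), so that scaling works against the gap.

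The difference in Lox lay in 1 transcript. ENSRNOT00000074226, with 7 exons and 4520 bases, was 10.6, 9.97 and 10.5 FPKM in the control and 8.79, 6.40 and 7.23 in the model samples, again without overlap. Its log2 fold change was -0.43 (SE 0.125, 95% interval -0.74 to -0.12, unadjusted p = 0.0144, adjusted p = 0.945). It was the only one of 29 tested rows of the 10 genes with an unadjusted p of at most 0.05, against 4.53% of all 64867 transcripts tested. None of the 29 passed both thresholds (2.98% of all transcripts did), and 3 of the 29 had groups that did not overlap (10.4% of all transcripts), namely this row, MSTRG.29480.1 of Plod1 and ENSRNOT00000022983 of Serpinh1. The second Lox row, MSTRG.16714.2, was 6.59, 6.17 and 4.71 FPKM in the control and 5.75, 6.21 and 6.61 in the model samples, and its groups overlapped (log2 fold change 0.09, unadjusted p = 0.563). ENSRNOT00000074226 held 60.9% to 68.3% of the Lox sum in control and 48.3% to 60.1% in model samples. Another row, MSTRG.16714.3, reached 1.06 FPKM in model 3 and at most 0.0479 in the other libraries, and the 2 other annotated rows stayed at or below 0.164. Since the rows of Lox share exons, a share moving from one to another can come from the assignment of the same reads, which was not tested.

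**Figure D3:**
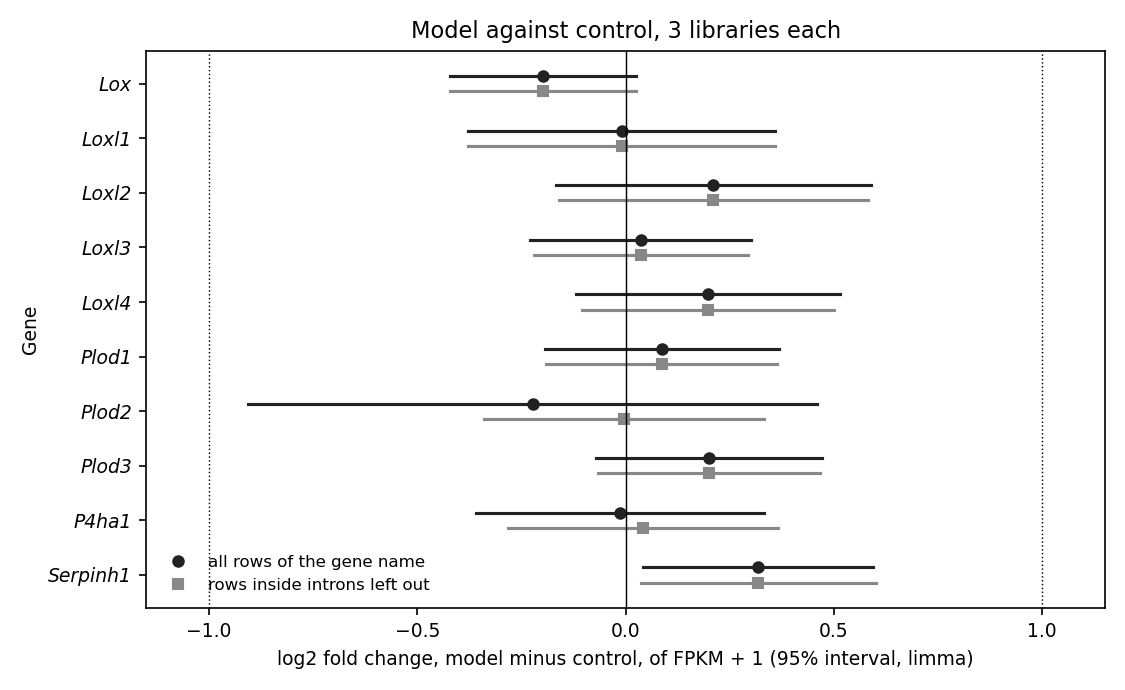
Log2 fold change of FPKM + 1, model minus control, for the 10 genes with its 95% interval from limma (3 libraries a group); circles use all rows of a gene name, squares leave out rows inside introns, and dotted lines mark 1 log2 unit. Only the intervals of Serpinh1 lie wholly to one side of 0, and the wide interval of Plod2 narrows when its intronic rows are left out.

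Loxl1, which is known to be needed for elastin upkeep (chromosome 8, 63067300 to 63092009, minus strand), was 21.5, 21.3 and 14.8 FPKM in the control and 17.8, 18.2 and 20.5 in the model samples. Control 3 was the lowest of the 6 libraries, and the model values lay inside the control range. The log2 fold change was -0.01 (SE 0.153, 95% interval -0.38 to 0.36, unadjusted p = 0.951), with the sign turning to 0.07 under TPM scaling. Loxl2, an enzyme that acts on basement membrane collagen (chromosome 15, 51303909 to 51365234, plus strand), was 6.71, 6.19 and 5.12 FPKM in the control and 6.87, 5.95 and 8.60 in the model samples. Model 3 was the highest, and the other model values lay near the control values (log2 fold change 0.21, SE 0.157, 95% interval -0.17 to 0.59, unadjusted p = 0.227). Without model 3 the difference was 0.08, and without control 3 it was 0.12.

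Loxl3 (chromosome 4, 113866804 to 113883477, plus strand) was the least abundant of the 10, at 1.27, 1.24 and 1.27 FPKM in the control and 1.44, 1.09 and 1.46 in the model samples. Its mean coverage was 7.17 to 10.5 reads per base, against 445 to 684 for the main Serpinh1 transcript, and the model samples lay on both sides of the control samples (log2 fold change 0.04, 95% interval -0.23 to 0.30, unadjusted p = 0.751). Loxl4 (chromosome 1, 261835992 to 261853495, minus strand) was 3.75, 4.25 and 3.30 FPKM in the control and 5.01, 4.21 and 4.18 in the model samples. Its groups overlapped only through control 2 (log2 fold change 0.20, SE 0.132, 95% interval -0.12 to 0.52, unadjusted p = 0.180). The rows of Loxl4 varied more than their sum: MSTRG.4219.2, of 5507 bases, ranged from 1.13 to 3.93 FPKM in control and from 2.24 to 4.68 in model samples. The 3-exon row MSTRG.4219.1 ranged from 0.221 to 2.002 FPKM and the annotated ENSRNOT00000021144 from 0.0529 to 1.46 over the 6 libraries.

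As a family, the 5 lysyl oxidases summed to 46.6 ± 5.81 FPKM in control and 45.9 ± 3.78 in model samples. Loxl1 held the largest mean share in both groups, 41.0% in control and 41.1% in model samples. Lox held 33.0% to 38.5% of the family sum in control and 30.1% to 31.9% in model samples, while Loxl2 held 12.6% to 13.3% and 14.1% to 17.3%. Neither pair of ranges overlapped. A gap of this kind was found in the FPKM of 10.7% of all genes tested, and no such rate was computed for shares. The FPKM of Loxl2 itself overlapped between the groups, at 5.12 to 6.71 in control and 5.95 to 8.60 in model samples. The share ranges of the other members overlapped. Loxl1 held 37.2% to 43.2% in control and 39.0% to 43.0% in model samples. Loxl3 held 2.52% to 3.19% and 2.58% to 3.15%, and Loxl4 held 7.41% to 8.65% and 8.40% to 10.9%, in that order. The shares add up to the whole, so they are not independent of each other, and they were not tested.

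By mean exonic FPKM over the 6 libraries, the order was Serpinh1 (85.0), Loxl1 (19.02), Lox (15.2), P4ha1 (13.3), Plod3 (10.7), Plod1 (10.3), Loxl2 (6.57), Loxl4 (4.12), Plod2 (3.63) and Loxl3 (1.30). Neighbours whose ranges over the libraries did not overlap were Serpinh1 and Loxl1, Plod1 and Loxl2, Loxl2 and Loxl4, and Plod2 and Loxl3. The other neighbours overlapped, namely Loxl1 with Lox, Lox with P4ha1, P4ha1 with Plod3, Plod3 with Plod1, and Loxl4 with Plod2. Genes further apart in the order could still be separate: Loxl1 (14.8 to 21.5) and Lox (12.8 to 17.4) lay above every value of Plod3 (8.98 to 12.3) and Plod1 (8.99 to 11.8).

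The genes around the 10 in collagen synthesis were described from 3 lists. Of all genes, 4.90% had an unadjusted p of at most 0.05, 47.7% were above 0 and 10.7% had groups that did not overlap. The lists were chosen with earlier results of these data known, and no list was tested as a set. Of 13 tested genes that hydroxylate, glycosylate or fold collagen, none passed both thresholds, 1 had an unadjusted p of at most 0.05, and 11 had a log2 fold change above 0 (median 0.07). That gene was Ppib, a prolyl isomerase (cyclophilin B) of the endoplasmic reticulum that speeds collagen folding. Its FPKM was 46.4, 40.7 and 39.1 in the control and 49.3, 46.7 and 55.5 in the model samples, without overlap (log2 fold change 0.26, SE 0.0998, unadjusted p = 0.0386, adjusted p = 0.934). P3h1, a prolyl 3-hydroxylase that works in a complex with Ppib, also had groups that did not overlap, at 5.09 ± 0.955 in control and 6.39 ± 0.256 in model samples (unadjusted p = 0.0796). P4hb, the subunit that joins P4ha1 in prolyl 4-hydroxylase, was 64.0 ± 3.23 in control and 69.8 ± 7.99 in model samples (unadjusted p = 0.286).

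Of 13 tested genes of procollagen export and processing, none passed the thresholds or had an unadjusted p of at most 0.05. A log2 fold change above 0 was seen in 10 of them, against 47.7% of all genes (median 0.07). Groups that did not overlap were seen in 1 of them, Adamts2, against 10.7% of all genes. Adamts2 was 7.27 ± 0.565 FPKM in control and 8.83 ± 0.942 in model samples (log2 fold change 0.25, unadjusted p = 0.0646). Bmp1, the procollagen C-proteinase that also cleaves the propeptide of Lox, was 64.1 ± 11.1 FPKM in control and 65.3 ± 8.18 in model samples. Tgm2, a transglutaminase that makes another kind of matrix crosslink, was 88.0 ± 11.1 and 90.1 ± 4.65. Mia2, an export factor for large cargo, was 21.0 ± 1.05 and 19.4 ± 2.20. The unadjusted p of Bmp1, Tgm2 and Mia2 was 0.829, 0.729 and 0.302, in that order.

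Among 12 substrates and partners of the lysyl oxidases, none passed both thresholds. An unadjusted p of at most 0.05 was found for 3 (4.90% of all genes), and 11 were above 0 (47.7% of all genes, list median 0.17). Col3a1, a fibrillar collagen gene, was 174.0, 177.9 and 153.6 FPKM in the control and 188.5, 203.8 and 232.5 in the model samples, without overlap (log2 fold change 0.30, SE 0.115, unadjusted p = 0.0365). Efemp2 (fibulin-4), which brings Lox to elastic fibres, was 4.80, 5.08 and 4.22 FPKM in the control and 5.32, 5.997 and 7.01 in the model samples, again without overlap (0.32, unadjusted p = 0.0497). Eln, the elastin gene and the other main Lox substrate, had the opposite sign: 90.0, 98.1 and 82.3 FPKM in the control against 72.8, 83.1 and 71.2 in the model samples. Its groups overlapped narrowly, through control 3 and model 2 (-0.25, unadjusted p = 0.0456). Col3a1, Efemp2 and Eln each had an adjusted p of 0.934. The other fibrillar collagen genes of the list had groups that overlapped. Col1a1 was 63.0 ± 3.18 FPKM in control and 72.4 ± 12.2 in model samples (unadjusted p = 0.197). Col1a2 was 30.6 ± 3.47 and 36.7 ± 11.0 (unadjusted p = 0.318). For Col5a1 and Col5a2 the unadjusted p was 0.505 and 0.614. The sum of this list was lowest in control 3, at 787.4 FPKM, against 966.2 and 1070 in the other controls and 966.0 to 1191 in model samples.

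**Figure D4:**
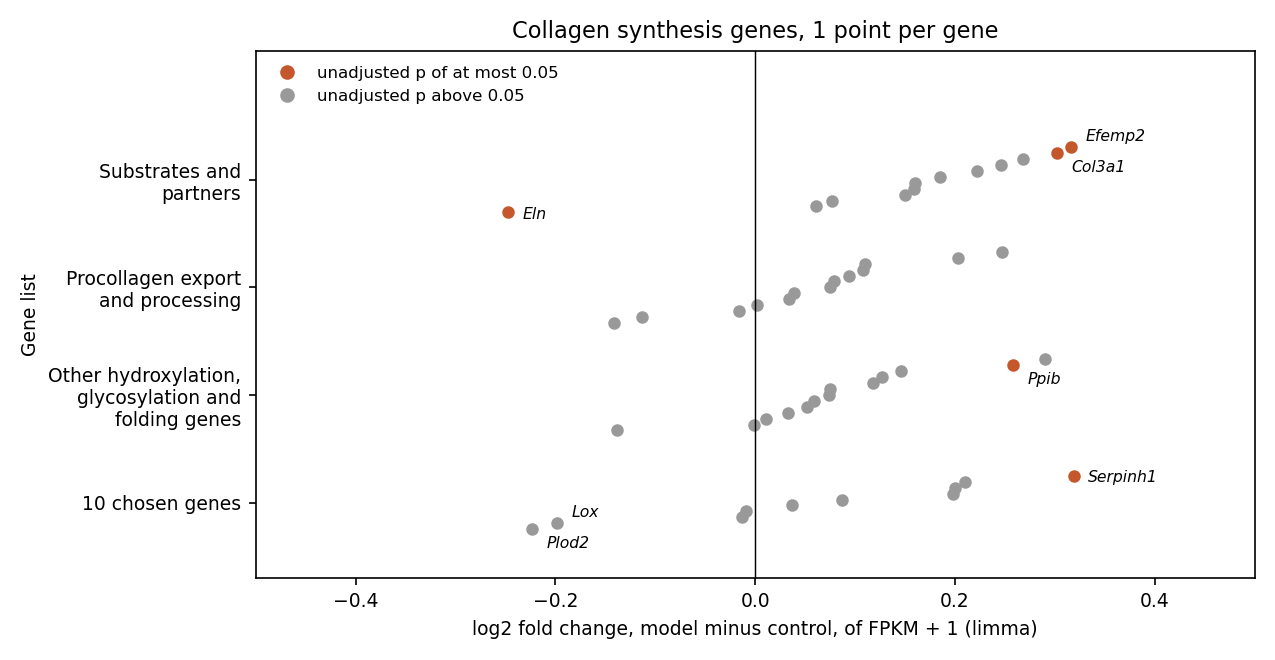
Log2 fold change of FPKM + 1, model minus control, 1 point per gene, for the 10 genes and 3 lists of collagen synthesis genes; orange marks an unadjusted limma p of at most 0.05. The orange points are Serpinh1 (0.32), Ppib (0.26), Col3a1 (0.30), Efemp2 (0.32) and Eln (-0.25), and all lie within 1 log2 unit of 0.

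Across the 6 libraries, the levels of the 10 genes moved together only in part. Of their 45 pairs, 28 had a positive Pearson correlation, with a median of 0.25. The closest pairs were Loxl2 with Plod1 (r = 0.95, n = 6) and Plod3 with Serpinh1 (r = 0.91, n = 6). Among 13895 genes with a mean of at least 1 FPKM, those close to Serpinh1 included Ctsh (r = 0.996, Spearman's rho 0.943, n = 6) and Ntmt1. Those closest to the all-row sum of Plod2 were Itgb3bp (r = 0.999, n = 6), Ccna1 and C2cd2, all highest in control 3. With 6 points, 39 genes reached r of at least 0.95 with Serpinh1 and 44 with Plod2, and the points share their library and its scaling, so these values describe likeness only.

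Circular RNAs from the 10 genes were at the edge of detection. Of 5216 circular RNAs with 14904 back-splice reads in the 6 libraries together, 4 came from the 10 genes, each with 1 read in 1 library. They were ciRNA272 from Loxl1 in model 1, ciRNA4 from Plod3 in control 1, and circRNA4337 from P4ha1 and circRNA4479 from Plod1, both in model 3. At 2037 to 2964 back-splice reads per library, a single read cannot be compared between the groups.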

How the data were processed

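Whole lung of 3 control and 3 PF model rats was compared. Per the study's methods and the submitters' processing notes, reads were mapped with Tophat2 or HISAT2 and assembled with StringTie, and the authors deposited FPKM per transcript, with per-base coverage as a signal. The authors also deposited back-splice read counts of circular RNAs. FPKM rows were summed per gene name, and gene names with at least 1 annotated transcript were tested where 3 or more of the 6 samples were above 0, with limma 3.58.1 (trend, two-sided) on log2(FPKM + 1) in R 4.3.3. A pseudocount of 1 understates the change of low genes. Calls used the study's values for p and fold change, p no higher than 0.05 and a ratio of mean FPKM of at least 1 log2 unit either way. The methods name FDR and q-values without saying to which p the value applies, so it was applied to the unadjusted p, and p was also adjusted over all genes by Benjamini-Hochberg. The fit was also run on simulated data with values drawn independently. The changes added there were larger than those of the 10 genes, so that run does not show how well changes of their size are found. FPKM hold no read counts, so no count test was run. Exonic sums left out assembled rows inside introns (class i). Class j rows share a splice junction with an annotated transcript. The 10 genes and the lists were chosen with earlier results of these data known. Named genes were the 10, the list genes with an unadjusted p of at most 0.05, the 3 most abundant genes of a list with none, and the 3 genes closest in pattern to the members with the highest and lowest fold change, and 1 of these is not reported here. P3h1, P4hb, Adamts2, Col1a1, Col1a2, Col5a1, Col5a2, Sftpc and the macrophage markers were named after their values were seen. Genome build and aligner versions are not given in the sources used here. The limma p-values set the difference between the groups against the spread between samples of a group, moderated over all genes or transcripts tested. The exact permutation p is a share of regroupings of the 6 samples.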

Additional observations from a re-analysis of the deposited data

How the results depend on the processing

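Values were recomputed under 19 alternatives, 17 planned and 2 (class i rows left out, and control 3 with model 2 left out) chosen after seeing the data. No gene of the 10 passed both thresholds under any of them. Of 190 values, 18 turned sign: Loxl1 to 0.072 (TPM), 0.014 (upper quartile) and -0.18 to 0.077 leaving out 1 sample, P4ha1 to 0.00089 (length-weighted sum), 0.086 (annotated only), 0.066 (TPM), 0.011 (upper quartile), 0.0415 (no class i rows) and -0.14 to 0.061 leaving out 1 sample, Plod1 to -0.0076 (annotated only), Plod2 to 0.0355 (without control 3, of -0.44 to 0.0355 leaving out 1 sample) and Loxl3 to -0.0042 (without model 3, of -0.0042 to 0.11). Serpinh1 stayed above 0 (0.23 to 0.43) with p at or below 0.05 in 13 of 19. It lost this without control 2 (0.29, unadjusted p = 0.0852), control 3 (0.23), model 1 (0.30, unadjusted p = 0.0768), model 2 (0.33, unadjusted p = 0.0572), model 3 (0.32, unadjusted p = 0.0588) or control 3 with model 2 (0.24). Lox over annotated transcripts was -0.43 (unadjusted p = 0.0134), and Plod3 without control 1 was 0.29 (unadjusted p = 0.0347), against 0.14 without control 2 and 0.15 without model 1. Genes called numbered 80 with a mean of at least 1 FPKM and 519 over annotated transcripts, against 293. Over annotated transcripts 1 gene of the hydroxylation list was called, P4ha2 (1.07, unadjusted p = 0.00237, adjusted p = 0.802). Leaving out 1 sample called 0 to 1 transcript rows of the 10 genes (MSTRG.29480.1 without control 1, ENSRNOT00000056704 without control 3). Deviations of same-numbered samples correlated at 0.07, 0.03 and -0.07, against -0.13 to 0.09 for samples of different numbers. No pairing by number was seen, but correlations over all genes cannot exclude a weak one. With a replicate block Serpinh1 was 0.32 (unadjusted p = 0.0339). That fit called 145 genes higher and 166 lower, and 0 passed adjustment, with 864 at an unadjusted p of at most 0.05. FPKM give no read counts per gene, so depth limits of single genes are known only as coverage.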
